A study of Mus musculus with 12 samples.

Results

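Epithelial cells hold to each other through adherens junctions, tight junctions and desmosomes, and 36 genes of these junctions, of 21743 genes in the deposited table, are described here in mammary glands and mammary tumors of Brca1-deficient mice. The genes are a list of named junction genes, drawn up with earlier results of these data known: 8 belong to adherens junctions, 18 to tight junctions and 10 to desmosomes, and all 36 were in the table. Of these, 21 encode proteins of the membrane and 15 encode proteins of the plaque or cytoplasm behind it. The samples came from 2 mice carrying MMTV-Cre and Brca1flox/flox on a mixed C57BL/6 and 129/Sv strain, so the gland cells of each mouse had the same genotype as its tumor and no wild-type mouse is among them. MMTV-Cre drives recombination mainly in mammary epithelium. The fourth mammary glands gave MG1 (2 libraries) and MG2 (2 libraries), and a mammary tumor of the same animal gave MT1 (5 libraries) and MT2 (3 libraries). Mouse 1 (MG1 and MT1) and mouse 2 (MG2 and MT2) are each 1 animal with 1 tumor, and the labels give no age. All samples were enriched for Lin- epithelial cells by depleting hematopoietic and endothelial cells before Drop-seq, a droplet method that tags each cell with a barcode and each RNA molecule with a unique molecular identifier (UMI).

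In an adherens junction, cadherins bind the cadherins of the next cell and catenins link them to actin. In a tight junction, claudins, occludin and its relatives seal the space between cells, and scaffold proteins of the zonula occludens and of cell polarity arrange them. In a desmosome, desmogleins and desmocollins are joined through plakoglobin, plakophilins and desmoplakin to keratin filaments. Mammary luminal cells and basal (myoepithelial) cells use different members of these families. Loss of E-cadherin with gain of N-cadherin is the textbook cadherin switch of epithelial-mesenchymal transition, and its repressors of the Snail and Zeb families bind E-box sequences with the core CAGGTG in promoters such as that of Cdh1.

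The shallowest library, MG1 replicate 2, held 693333 UMIs from 105 cells and the deepest, MT2 replicate 1, held 14841414. Any pair of libraries shared between 0 and 7 cell barcodes. Stromal cells (clusters with fibroblast, endothelial or immune markers) were left out, and 20037 of 21157 cells remained. MG1 replicate 2 kept 76 cells and MG1 replicate 1 kept 596, so single-library values of MG1 replicate 2 are the least precise. The targeted gene, Brca1, was read with 28 to 52 UMIs in MT1 and 123 to 153 in MT2, and with 8 and 11 UMIs in MG2 and 0 in both MG1 libraries. Scaled to depth this was 10.3 UMIs per 1000000 in MT1, 10.4 in MT2 and 2.24 in MG2. In MG1 it was under 0.993, taking 3 counts as the limit of a count of 0. Reads of this method come from the 3' end of a transcript, so these counts do not show whether the floxed exon was removed. Levels are given as CPM, the UMIs of a gene scaled to a total of 1000000 UMIs in the kept cells of a library after TMM scaling. Replicates here are libraries made from a single tissue of a single animal, so p-values measure only the spread between libraries, which may be technical. The labels name no preparation batch, and a batch shared by the libraries of a group cannot be told apart from that group. In these sums over cells, fewer cells of a type and less RNA per cell cannot be told apart.

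The tumor cells were checked against 7 general epithelial markers. Their summed level ran from 6011 to 7899 CPM in MT1 and from 763 to 988 CPM in MT2, beside 8019 to 11546 in MG1 and 7316 to 7867 in MG2. MT2 cells lay almost wholly in 2 clusters (9764 of 9793 kept cells) that matched no cell type list, and MT2 is therefore called by its label. With the fibroblast-like cluster left out, 8 fibroblast markers summed to 3507 to 3876 CPM in MT2 and 336 to 466 CPM in MT1, beside 402 to 790.2 in MG1 and 296 to 309 in MG2. None of these 8 markers was at 0 in any group. The part of these markers in the results below was not tested.

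The promoters of members that move together are shown first, since the E-box core named above lies in some of them and not in others. RefSeq start sites (GRCm38.p6) were at hand for 20 of the 36 members, and the window is the 250 bases before the start, 5' to 3', at the most upstream start the RefSeq table gives for a gene, which lies inside the gene's span in the annotation used for gene positions for 8 of the 20, by 156537 bases for Tjp1, 4184 for Ctnnb1, 3096 for Crb3 and 163 or fewer for the others. Capitals mark CAGGTG or its reverse complement CACCTG, searched on both strands. Epcam (chr17:87635729-87635978, plus strand), Crb3 (chr17:57061951-57062200, plus strand), Lsr (chr7:30973470-30973719, minus strand) and Pard6b (chr2:168080754-168081003, plus strand) fell over 8-fold in MT2 and hold the core more than once. Cldn3 (chr5:134985964-134986213, plus strand) fell as far in MT2 without holding it. Ctnnb1 (chr9:120933150-120933399, plus strand) fell little in MT2 and does not hold it.
Epcam: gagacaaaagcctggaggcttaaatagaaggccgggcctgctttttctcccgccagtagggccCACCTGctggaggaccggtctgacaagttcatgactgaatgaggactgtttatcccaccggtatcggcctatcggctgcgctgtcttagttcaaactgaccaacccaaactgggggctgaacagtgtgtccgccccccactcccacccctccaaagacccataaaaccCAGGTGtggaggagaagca
Crb3: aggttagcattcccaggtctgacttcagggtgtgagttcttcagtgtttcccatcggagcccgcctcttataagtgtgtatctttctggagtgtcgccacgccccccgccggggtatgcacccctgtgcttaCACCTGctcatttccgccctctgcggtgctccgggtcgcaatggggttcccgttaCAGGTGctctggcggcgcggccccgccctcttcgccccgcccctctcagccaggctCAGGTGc
Lsr: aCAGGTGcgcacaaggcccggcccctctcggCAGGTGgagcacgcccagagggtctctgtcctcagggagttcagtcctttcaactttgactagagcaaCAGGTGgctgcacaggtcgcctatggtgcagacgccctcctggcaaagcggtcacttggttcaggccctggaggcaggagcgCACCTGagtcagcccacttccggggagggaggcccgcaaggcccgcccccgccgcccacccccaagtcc
Pard6b: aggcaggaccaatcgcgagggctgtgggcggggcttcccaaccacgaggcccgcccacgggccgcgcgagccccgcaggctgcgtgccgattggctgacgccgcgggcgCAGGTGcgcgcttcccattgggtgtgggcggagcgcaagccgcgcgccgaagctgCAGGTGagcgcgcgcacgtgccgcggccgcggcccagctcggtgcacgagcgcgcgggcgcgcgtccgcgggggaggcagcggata
Cldn3: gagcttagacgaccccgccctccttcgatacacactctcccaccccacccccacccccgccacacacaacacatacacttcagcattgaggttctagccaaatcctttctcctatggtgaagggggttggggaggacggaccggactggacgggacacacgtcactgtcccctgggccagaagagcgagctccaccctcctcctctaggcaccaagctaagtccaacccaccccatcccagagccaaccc
Ctnnb1: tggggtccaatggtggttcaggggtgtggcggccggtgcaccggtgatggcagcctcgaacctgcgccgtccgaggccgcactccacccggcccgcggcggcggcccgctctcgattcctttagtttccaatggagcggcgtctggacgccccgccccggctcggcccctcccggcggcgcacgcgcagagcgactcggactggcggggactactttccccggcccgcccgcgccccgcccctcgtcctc

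Among the 20 members with a start site, 8 (40.0%) held the core in this window, and 13 of the 28 member starts in the table did (46.4%). Of all 32851 start sites in the table, 17.2% held it in a window of this length. Of the 16 members with a start site that were lost in MT2, 8 held the core and 8 did not (Cldn1, Cldn3, Cldn7, Cgn, Dsp, Jup, Ocln and Marveld2). The 4 that were not lost (Ctnnb1, Ctnnd1, Pard3 and Tjp1) did not hold it, and the start used lies inside the gene's span for Ctnnb1, Pard3 and Tjp1. The promoters of Cdh1, Cdh2, Cdh3 and the other 13 members were not analysed here. A match is a description of the letters and not a bound site.

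The first question was which junction genes the tumor of each mouse had lost against the gland of the same mouse. A gene was called at an adjusted p under 0.05 (edgeR quasi-likelihood test on library sums, Benjamini-Hochberg over all 13665 genes tested), and a called gene was counted as lost at a log2 fold change of -3 or lower and as lowered above that. In MT2, 28 of the 36 members were lost, 6 were lowered, 0 rose, 1 was not called (Ctnna1) and 1 (Cdh11) was too low to be tested. In MT1, 1 member was lost (Cldn6), 23 were lowered, 3 rose (Cldn3, Perp and Ctnna1), 8 were not called (Cdh2, Cldn23, Marveld2, Marveld3, F11r, Crb3, Pard6b and Cgn) and Cdh11 was again not tested. Over all genes tested, 66.8% were called in MT2 (34.2% lower and 32.6% higher) and 59.4% in MT1 (27.1% lower and 32.3% higher), and 10.3% and 5.88% met the rule for lost. A fitted log2 fold change of a gene with 0 UMIs in a group depends on the prior count and is no bound. The median log2 fold change of the members was -6.69 in MT2, or -6.58 with the 6 genes at 0 UMIs set at their bound, and -0.77 in MT1, beside -0.05 and 0.10 over all genes. With other scaling factors (RLE) the median of all genes in MT1 moved from 0.10 to 0.00, so that MT1 changes stand against a shift of this size. In every one of the 36 members, the 3 MT2 libraries were below both MG2 libraries without overlap, whereas 19 members were below MG1 without overlap in MT1, 3 were above and 14 overlapped. How many of all genes separate without overlap was not counted, so these counts describe the members and do not set them apart.

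Whether the change from gland to tumor differed between the mice was tested as the interaction of tissue and mouse in the same fit, which called 30 of 35 members, all in the direction of a higher tumor-to-gland ratio in mouse 1. Of all genes, 43.6% were called, 26.4% in that direction and 17.2% in the other. The other 5 tested members were Cldn6, Ctnnb1, Ctnnd1, Tjp1 and Pard3. The call for Pkp1 was lost in 11 of 19 alternatives and that for Cdh2 without gland cells in tumor clusters (2.02, adjusted p = 0.251). This test and the comparisons within each mouse share their libraries. The MT1 calls rested in part on MG1 replicate 1. Without it MG1 held 1 library, and the log2 fold change was smaller for Cldn8 (-0.14), Ocln (-0.35), Dsp (-0.16) and Pkp2 (-0.06). It was -0.52 for Epcam, -0.69 for Ctnnd1, -0.56 for Tjp1, -0.85 for Tjp3, -0.40 for Dsg2 and -0.67 for Dsc2. For Cdh3 it was -1.77, for Cldn6 -6.34 and for Cdh2 -1.79. The calls of these members, and the lack of a call for Cdh2, depended on that library. Without MG1 replicate 2, Cdh3, Ctnnb1, Tjp3, Pkp1 and Pkp3 lost their call, as did the rise of Ctnna1 (adjusted p = 0.0563). With the mouse as the replicate (4 sums, edgeR with the mouse as block), 0 of 36 members and 0 of 14970 genes were called, 1 member (Cldn6) and 14.8% of all genes had an unadjusted p under 0.05, and DESeq2 on the same sums called 15 members, all lower, and 9.0% of all genes.

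**Figure D1:**
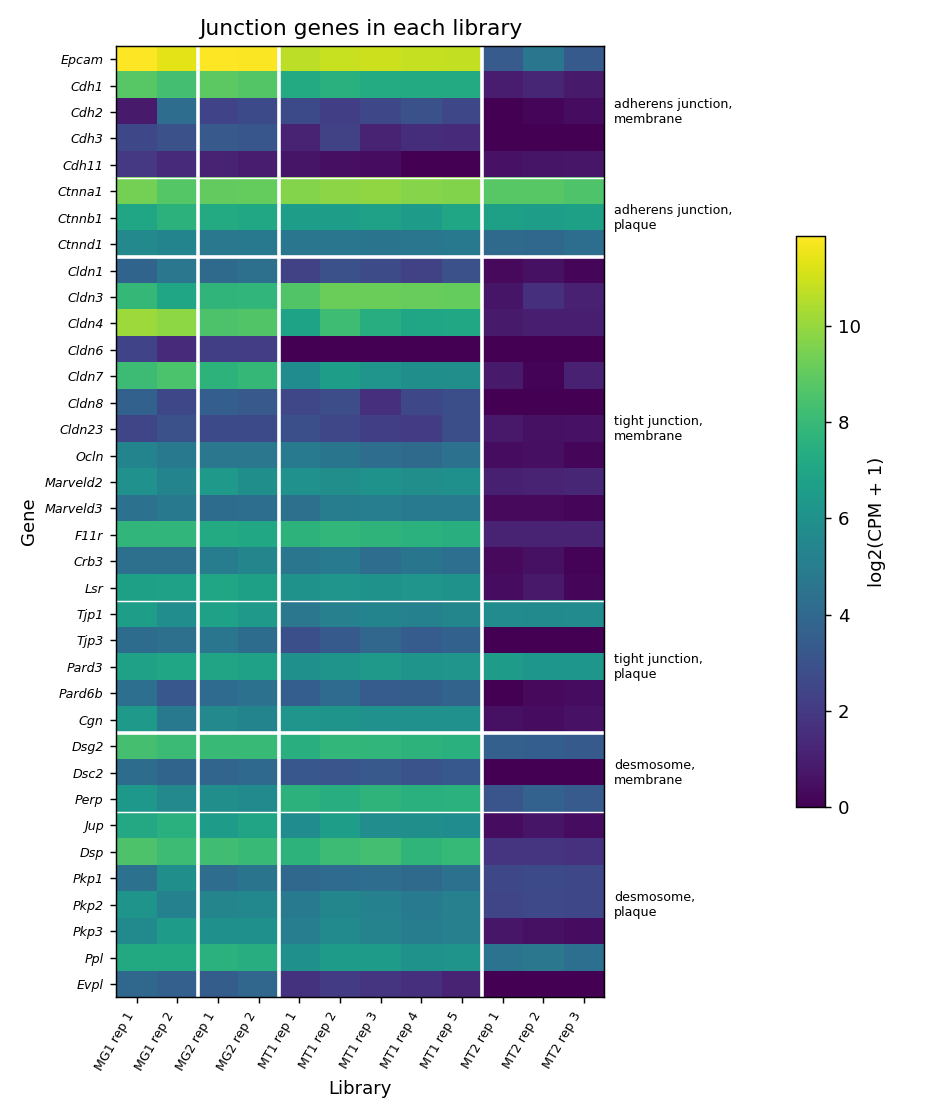
Level of each of the 36 members (rows) in each of the 12 libraries (columns) as log2(CPM + 1), with members grouped by junction and by membrane or plaque and thick lines between groups of libraries. The 3 MT2 columns are dark for most rows and stay bright for Ctnna1, Ctnnb1, Tjp1 and Pard3, while the 5 MT1 columns stay close to the gland columns in most rows.

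Among the adherens junction genes, Cdh1, Epcam and Cdh3 fell in both tumors, by far more in MT2 than in MT1, while the catenins changed by less than 1 log2 unit. Cdh1 encodes E-cadherin, the main cadherin of epithelial cells (chr8:106603351-106670246, plus strand, GRCm38). Its level was 445 and 321 CPM in MG1 and 470.1 and 418 in MG2, with 149.8, 182, 155, 150.2 and 152 in MT1 and 0.884, 1.46 and 0.787 in MT2. Both tumors were below both glands without overlap, and MT1 was above MT2 by 7.21 ± 0.22 (SE, adjusted p = 1.79e-14) on the log2 scale. The log2 fold change was -1.297 ± 0.16 (SE, adjusted p = 2.26e-06) in MT1 and -8.71 ± 0.24 (SE, adjusted p = 1.11e-14) in MT2.

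Epcam encodes a cell adhesion molecule of epithelia that also steadies claudins (chr17:87635979-87651129, plus strand). It measured 9.51, 24.1 and 9.20 CPM in the MT2 libraries and 1665, 1877, 1992, 1831 and 1746 in MT1, beside 3737 and 2639 in MG1 and 3660.3 and 3567 in MG2. The MT1 libraries were all under the lowest gland library, and MT2 replicate 2 was higher than the other two MT2 libraries. The log2 fold change was -0.81 ± 0.25 (SE, adjusted p = 0.0102) in MT1 and -7.98 ± 0.35 (SE, adjusted p = 1.51e-12) in MT2. Without MG1 replicate 1 the MT1 change was -0.52 (adjusted p = 0.138) and was not called.

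Cdh3, which encodes P-cadherin of basal cells, was low in all groups, at 4.99 and 6.61 CPM in the MG1 libraries, 8.84 and 7.99 in MG2, 1.17, 3.93, 1.25, 1.96 and 1.75 in MT1 and 0, 0 and 0 in MT2. Its 0 UMIs in MT2 place MT2 at least 110.3-fold below MG2, taking 3 counts over the group as the limit of a count of 0. In MT1 it was lowered (log2 fold change -1.48 ± 0.52, SE, adjusted p = 0.0232), and without MG1 replicate 1 (adjusted p = 0.136), MG1 replicate 2 (adjusted p = 0.0602) or MT1 replicate 3 (adjusted p = 0.0507) the call was lost.

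Cdh2, which encodes N-cadherin, the cadherin of mesenchymal and neural cells, did not rise in either tumor as a whole. Its level was 0.832 and 18.2 CPM in MG1 and 4.30 and 5.41 in MG2, with 5.29, 3.53, 5.00, 6.66 and 4.95 in MT1 and 0, 0.153 and 0.315 in MT2, resting on 101 UMIs in MT1 and 6 in MT2, beside 13 in MG1 and 41 in MG2. MG1 replicate 2 was far above MG1 replicate 1, and MT1 lay between them. The MT1 contrast was -0.02 ± 0.78 (SE, adjusted p = 0.989) and depended on those libraries, being 2.63 (adjusted p = 0.0120) without MG1 replicate 2 and -1.79 (adjusted p = 0.0197) without MG1 replicate 1. In MT2 it was -4.81 ± 0.78 (SE, adjusted p = 3.12e-05). That fall rested on 44 of 2112 MG2 cells that lay in the Cav1-expressing cluster made mostly of MT1 cells: they held 35 of the 41 UMIs, and without gland cells in tumor clusters the change was -2.12 (adjusted p = 0.134).

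Cdh11, a cadherin of mesenchymal cells, had 0.516, 0.613 and 0.629 CPM in the MT2 libraries and 0.587, 0.393, 0.313, 0 and 0 in MT1, beside 2.91 and 1.65 in MG1 and 1.20 and 0.940 in MG2, too few UMIs (8, 9, 4 and 23 in the groups) for a test. It was read in the fibroblast-like cells that were left out, at 431 CPM in MT1 and 501 CPM in MT2. None of Cdh2, Cdh3 and Cdh11 was called higher in MT2, where Cdh1 was lost.

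The catenins behaved unlike the cadherins in MT2. Ctnna1, encoding alpha-catenin, which links the cadherin complex to actin, measured 658 and 423 CPM in the MG1 libraries, 525 and 534 in MG2, 810.1, 882, 943, 833 and 787 in MT1 and 441, 439 and 381 in MT2. MT1 stood above both glands without overlap (log2 fold change 0.64 ± 0.17, SE, adjusted p = 0.00347). The MT2 libraries were below both MG2 libraries and the change was not called (-0.33 ± 0.17, SE, adjusted p = 0.101), although it was called without MG1 replicate 1 (adjusted p = 0.0369) or MG1 replicate 2 (adjusted p = 0.0421) and with the mouse 2 libraries of shared number alone (adjusted p = 0.0322).

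Ctnnb1, encoding beta-catenin, which binds the cadherin tail and also acts in Wnt signaling, was 125 and 197 CPM in MG1 and 151 and 137 in MG2, with 98.7, 94.99, 109, 89.1 and 129 in MT1 and 105, 98.8 and 106 in MT2. The 3 MT2 libraries and the 5 MT1 libraries overlapped. The log2 fold change was -0.58 ± 0.18 (SE, adjusted p = 0.0107) in MT1 and -0.47 ± 0.18 (SE, adjusted p = 0.0278) in MT2, and the difference between the mice was -0.10 ± 0.26 (SE, adjusted p = 0.793). The call in MT2 was lost in 8 of 22 alternatives, among them leaving out either MG2 library (adjusted p = 0.203 and 0.0724).

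Ctnnd1, encoding p120-catenin, which holds cadherins at the surface, was 16.3, 15.3 and 18.6 CPM in the MT2 libraries and 24.7, 23.9, 22.4, 24.5 and 27.1 in MT1, beside 47.0 and 39.7 in MG1 and 26.1 and 27.0 in MG2. It was lowered by a similar amount in both mice (-0.87 in MT1 and -0.67 in MT2, adjusted p = 2.90e-04 and 0.00113). In MT2 the 3 catenins of the adherens junction were thus 0.33 to 0.67 log2 units under the gland, where Cdh1 fell by 8.71.

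The claudins, the sealing proteins of tight junctions, split in MT1 and fell together in MT2. In MT1, Cldn3 rose while Cldn1, Cldn4, Cldn6, Cldn7 and Cldn8 fell and Cldn23 was not called, so that the family met the rule for a switch, which asks for at least 1 member called in each direction. Of all genes, 27.1% were called lower and 32.3% higher in MT1, so meeting this rule is a description and does not set the family apart. In MT2 all 7 fell. Cldn3 (chr5:134986214-134987472, plus strand) measured 242 and 124 CPM in the MG1 libraries, 216 and 224 in MG2, 402, 593, 596, 554 and 533 in MT1 and 0.590, 2.14 and 1.10 in MT2. Each MT1 library was above each gland library and each MT2 library was below. The log2 fold change was 1.498 ± 0.26 (SE, adjusted p = 1.08e-04) in MT1 and -7.41 ± 0.34 (SE, adjusted p = 2.53e-12) in MT2. The difference between the mice was 8.91 ± 0.45 (SE, adjusted p = 4.68e-11).

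Cldn4 (chr5:134945119-134946934, minus strand), the neighbour of Cldn3 on chromosome 5, went the other way in MT1. Its level was 1135 and 932 CPM in MG1 and 377 and 395 in MG2, with 116, 291, 166, 127 and 136 in MT1 and 0.811, 0.996 and 1.023 in MT2. Every MT1 library was below every gland library, with replicate 2 above the other four, and the log2 fold change was -2.63 ± 0.24 (SE, adjusted p = 9.55e-08). In MT2 it was -8.65 ± 0.38 (SE, adjusted p = 1.64e-12). MG1 stood above MG2 for this gene.

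Cldn7, a claudin of the lateral membrane, was 0.811, 0.0766 and 1.10 CPM in the MT2 libraries and 52.9, 100.1, 71.1, 59.9 and 57.4 in MT1, beside 284 and 364 in MG1 and 203 and 238 in MG2. It fell by 2.23 ± 0.24 (SE) on the log2 scale in MT1 (adjusted p = 7.39e-07) and by 8.33 ± 0.38 in MT2 (adjusted p = 2.20e-12). Cldn1 measured 13.3 and 24.8 CPM in the MG1 libraries, 16.3 and 19.7 in MG2, 4.11, 6.67, 5.63, 4.11 and 6.70 in MT1 and 0.221, 0.460 and 0.157 in MT2. Its log2 fold change was -1.62 ± 0.34 (SE, adjusted p = 5.46e-04) in MT1 and -5.90 ± 0.37 (SE, adjusted p = 1.58e-10) in MT2. Both genes kept the order gland above MT1 above MT2 without overlap.

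Cldn6, a claudin known best from embryonic epithelium, was the 1 member lost in both tumors. It was 4.16 and 1.65 CPM in MG1 and 3.59 and 3.53 in MG2, with 0, 0, 0, 0 and 0 in MT1 and 0, 0 and 0 in MT2. Cldn6 passed the filter on low values only through the glands, so with 0 UMIs in 5 MT1 and 3 MT2 libraries it could only be called lower. With the UMIs of each group pooled, MT1 was at least 23.4-fold below MG1 and MT2 at least 46.6-fold below MG2. Of the 11 UMIs in MG1, 10 came from MG1 replicate 1. The gland levels rested on 11 and 30 UMIs, and the MT1 call was lost without MG1 replicate 1 (adjusted p = 0.0539).

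Cldn8 was 0, 0 and 0 CPM in the MT2 libraries and 4.70, 5.89, 2.03, 4.89 and 6.12 in MT1, beside 12.1 and 4.96 in MG1 and 10.5 and 8.93 in MG2. MT1 overlapped MG1 and was lowered, with a log2 fold change of -1.16 ± 0.45 (SE, adjusted p = 0.0360) that 6 of 20 alternatives did not call, the fit without MG1 replicate 1 among them (adjusted p = 0.927). MT2 had 0 UMIs and was at least 127-fold below MG2. Cldn23 was 4.57 and 6.61 CPM in the MG1 libraries, 5.26 and 5.41 in MG2, 6.46, 4.71, 3.59, 3.13 and 6.12 in MT1 and 0.737, 0.460 and 0.472 in MT2, with no call in MT1 (-0.17 ± 0.45, SE, adjusted p = 0.762) and a loss in MT2 (-3.21 ± 0.40, SE, adjusted p = 1.56e-06).

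The other 6 membrane genes of tight junctions were lost in MT2, while in MT1 Ocln and Lsr were lowered and 4 were not called. Ocln encodes occludin, and Marveld2 and Marveld3 encode its relatives of the MARVEL family. Ocln was 40.3 and 26.5 CPM in MG1 and 24.9 and 25.2 in MG2, with 28.2, 23.6, 17.7, 16.3 and 21.6 in MT1 and 0.295, 0.383 and 0.157 in MT2. Marveld2 was 1.032, 1.23 and 1.42 CPM in the MT2 libraries and 62.9, 58.1, 64.7, 57.8 and 61.2 in MT1, beside 64.0 and 39.7 in MG1 and 85.1 and 59.7 in MG2. Marveld3 was 20.4 and 26.5 CPM in the MG1 libraries, 17.2 and 18.8 in MG2, 20.0, 30.2, 32.8, 28.0 and 29.4 in MT1 and 0.221, 0.230 and 0.157 in MT2. In MT1 the first of them was lowered (-0.80 ± 0.23, SE, adjusted p = 0.00728), and the other two were not called (Marveld2 0.14 ± 0.19, SE, adjusted p = 0.560, Marveld3 0.37 ± 0.23, SE, adjusted p = 0.164). In MT2 the 3 genes were lost, with log2 fold changes of -6.38, -5.86 and -6.33.

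F11r encodes the junctional adhesion molecule JAM-A, Crb3 a small transmembrane protein of the apical Crumbs complex, and Lsr the angulin that places tricellulin at the corners of cells. F11r was 225 and 227 CPM in MG1 and 150.3 and 135 in MG2, with 204, 234, 208, 192 and 177 in MT1 and 1.25, 1.302 and 1.26 in MT2. Crb3 was 0.221, 0.460 and 0.0787 CPM in the MT2 libraries and 24.1, 29.4, 17.7, 23.3 and 18.9 in MT1, beside 19.5 and 19.8 in MG1 and 31.1 and 40.9 in MG2. Lsr was 105 and 109 CPM in the MG1 libraries, 125 and 107 in MG2, 65.2, 71.0, 68.1, 71.1 and 67.9 in MT1 and 0.295, 0.766 and 0.157 in MT2. The MT1 libraries overlapped MG1 for F11r (-0.16 ± 0.14, SE, adjusted p = 0.344) and Crb3 (0.18 ± 0.28, SE, adjusted p = 0.602) and were below it for Lsr (-0.63 ± 0.18, SE, adjusted p = 0.00503). All were lost in MT2, at -6.79, -7.03 and -8.08.

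The cytoplasmic genes of tight junctions divided into a lowered and a lost group in MT2. Tjp1, encoding the scaffold ZO-1, was 97.7 and 54.6 CPM in MG1 and 110.2 and 84.4 in MG2, with 25.3, 35.3, 40.0, 35.6 and 43.1 in MT1 and 51.3, 49.5 and 52.4 in MT2. Pard3, encoding the polarity protein PAR-3, was 89.8, 74.3 and 74.3 CPM in the MT2 libraries and 60.5, 70.7, 85.0, 69.1 and 72.8 in MT1, beside 111 and 124 in MG1 and 123 and 111 in MG2. Both were lowered in each mouse, by 1.15 log2 units or less. Tjp1 changed by -1.15 ± 0.21 (SE, adjusted p = 1.43e-04) in MT1 and -0.93 ± 0.20 (SE, adjusted p = 4.58e-04) in MT2, and Pard3 by -0.69 ± 0.16 (SE, adjusted p = 0.00127) and -0.55 ± 0.16 (SE, adjusted p = 0.00450), the last not called without MG2 replicate 1 (adjusted p = 0.0830). Tjp1 was the 1 member called higher in MT2 than in MT1, with a log2 difference of MT1 against MT2 of -0.48 ± 0.17 (SE, adjusted p = 0.0151).

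Tjp3, encoding ZO-3, was 17.5 and 19.8 CPM in the MG1 libraries, 24.4 and 17.2 in MG2, 6.46, 9.42, 13.9, 9.99 and 11.9 in MT1 and 0, 0 and 0 in MT2, and its 0 UMIs in MT2 place it at least 272-fold below MG2. Its fall in MT1 (-0.74 ± 0.31, SE, adjusted p = 0.0466) was lost in 11 of 20 alternatives. Cgn, encoding cingulin, was 83.6 and 26.5 CPM in MG1 and 47.8 and 40.4 in MG2, with 72.8, 68.7, 63.6, 63.6 and 63.8 in MT1 and 0.442, 0.306 and 0.472 in MT2. Pard6b, encoding the polarity protein PAR-6 beta, was 0, 0.230 and 0.315 CPM in the MT2 libraries and 10.6, 16.5, 10.0, 10.2 and 12.5 in MT1, beside 19.1 and 8.27 in MG1 and 16.7 and 21.4 in MG2. In MT1 neither Cgn (0.07 ± 0.24, SE, adjusted p = 0.812) nor Pard6b (-0.45 ± 0.34, SE, adjusted p = 0.270) was called, and without MG1 replicate 1 Cgn was called higher at 1.34 (adjusted p = 0.00140). In MT2 they were lost, at -6.69 and -6.58. The scaffolds of the same family, Tjp1 and Tjp3, therefore stood apart in MT2, with Tjp1 at 51.1 ± 1.47 CPM beside 97.3 ± 18.2 in MG2 (mean ± SD) and Tjp3 at 0 UMIs.

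All 10 desmosome genes fell in MT2, 8 of them by the rule for lost. Dsp encodes desmoplakin, the link to keratin filaments, and measured 377 and 284 CPM in the MG1 libraries, 298 and 258 in MG2, 202, 278, 315, 217 and 243 in MT1 and 2.43, 2.45 and 2.20 in MT2. Jup encodes plakoglobin, the catenin that desmosomes share with adherens junctions, and measured 142 and 184 CPM in MG1 and 93.0 and 119.9 in MG2, with 53.5, 94.99, 56.0, 58.9 and 54.5 in MT1 and 0.295, 0.613 and 0.315 in MT2. Jup differed from the other catenins in MT2, with a log2 fold change of -7.96 ± 0.33 (SE, adjusted p = 6.45e-13), and it was lowered in MT1 (-1.34 ± 0.21, SE, adjusted p = 3.94e-05). Dsp changed by -0.41 ± 0.17 (SE, adjusted p = 0.0476) in MT1, a call lost in 10 of 20 alternatives, and by -6.87 ± 0.23 (SE, adjusted p = 8.01e-14) in MT2.

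The desmosomal cadherins were Dsg2, at 11.5, 10.8 and 9.36 CPM in the MT2 libraries and 174, 230.0, 220.4, 204 and 182 in MT1, beside 327 and 269 in MG1 and 266 and 266 in MG2, and Dsc2, at 17.1 and 13.2 CPM in the MG1 libraries, 13.6 and 15.8 in MG2, 8.22, 7.85, 8.91, 7.24 and 8.74 in MT1 and 0, 0 and 0 in MT2. Dsc2 had 0 UMIs in MT2 and was at least 193-fold below MG2, whereas Dsg2 kept 416 UMIs in MT2, with a log2 fold change of -4.65 ± 0.17 (SE, adjusted p = 2.04e-13). In MT1 both were lowered (-0.57 and -0.95, adjusted p = 0.00304 and 0.00574), and without MG1 replicate 1 neither was called.

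Perp, a tetraspan membrane protein that desmosomes need and that p53 induces, was the desmosome gene that rose in MT1. It was 79.0 and 46.3 CPM in MG1 and 56.9 and 49.4 in MG2, with 199.7, 165, 213, 184 and 191 in MT1 and 7.89, 12.5 and 9.75 in MT2. The MT1 libraries were above every gland library (log2 fold change 1.51 ± 0.21, SE, adjusted p = 1.12e-05), and the MT2 libraries were below every gland library (-2.40 ± 0.21, SE, adjusted p = 1.26e-08). Among the 20 membrane genes tested, it was the 1 that did not meet the rule for lost in MT2.

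The plakophilins, which widen the desmosomal plaque, fell unequally in MT2. Pkp1 was 4.86, 5.29 and 4.88 CPM in the MT2 libraries and 14.7, 16.5, 17.8, 16.4 and 21.3 in MT1, beside 20.8 and 59.5 in MG1 and 17.9 and 23.0 in MG2. Pkp2 was 70.7 and 36.4 CPM in the MG1 libraries, 41.6 and 45.1 in MG2, 28.8, 42.4, 35.9, 29.6 and 35.3 in MT1 and 4.50, 5.06 and 5.03 in MT2. Pkp3 was 50.7 and 94.2 CPM in MG1 and 60.7 and 61.8 in MG2, with 32.3, 48.7, 38.8, 31.1 and 34.96 in MT1 and 0.663, 0.460 and 0.315 in MT2. In MT2 the log2 fold change was -2.03 ± 0.28 (SE, adjusted p = 4.01e-06) for Pkp1, -3.15 ± 0.21 (SE, adjusted p = 4.69e-10) for Pkp2 and -6.93 ± 0.30 (SE, adjusted p = 1.45e-12) for Pkp3. In MT1 the 3 genes were lowered by 0.92, 0.77 and 0.84 (adjusted p = 0.0135, 0.00394 and 0.00410), with Pkp1 and Pkp3 not called without MG1 replicate 2 and Pkp2 not called without MG1 replicate 1.

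Ppl and Evpl encode periplakin and envoplakin, plakins of the cornified envelope that also bind keratin. Ppl was 22.3, 24.97 and 19.2 CPM in the MT2 libraries and 60.5, 94.6, 93.8, 66.0 and 69.0 in MT1, beside 148 and 145 in MG1 and 189.5 and 166 in MG2. Evpl was 14.6 and 11.6 CPM in the MG1 libraries, 10.3 and 14.1 in MG2, 2.35, 3.14, 2.50, 2.15 and 1.17 in MT1 and 0, 0 and 0 in MT2. In MT2, Ppl had a log2 fold change of -3.004 ± 0.19 (SE, adjusted p = 2.09e-10), just inside the rule for lost, and there were 0 UMIs of Evpl, at least 159.9-fold below MG2. In MT1 they changed by -0.93 ± 0.18 (SE, adjusted p = 3.41e-04) and -2.60 ± 0.37 (SE, adjusted p = 2.63e-05). The members nearest to the limit for lost in MT2 were Ppl at -3.004, Pkp2 at -3.15 and Cldn23 at -3.21 on the inside and Perp at -2.40 on the outside.

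**Figure D2:**
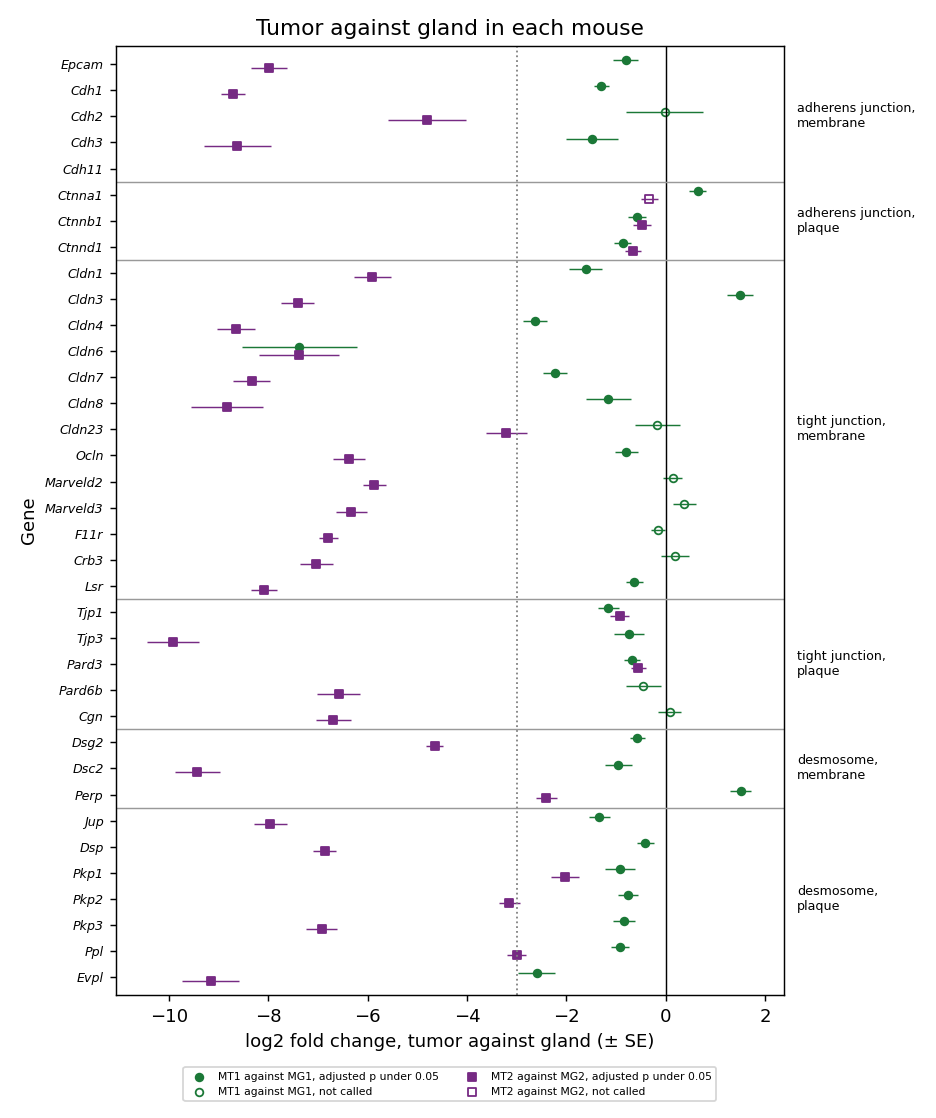
Log2 fold change of tumor against gland for each member (± SE), circles for mouse 1 and squares for mouse 2, filled where the adjusted p was under 0.05 and open where it was not, with a dotted line at -3. The squares of 28 members lie at or left of the dotted line, those of Ctnna1, Ctnnb1, Ctnnd1, Tjp1 and Pard3 lie near 0, and circles lie between -2.63 and 1.51 except that of Cldn6 at -7.37, a fitted value that rests on 0 UMIs in MT1.

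Set by position, the median change in MT2 was lower over membrane genes than over plaque genes. Of 21 membrane genes, 19 were lost, 1 was lowered (Perp) and 1 was not tested (Cdh11), with a median log2 fold change of -7.21 (-6.79 with genes at 0 UMIs at their bound). Of 15 plaque genes, 9 were lost, 5 were lowered (Ctnnb1, Ctnnd1, Tjp1, Pard3 and Pkp1) and 1 was not called (Ctnna1), with a median of -3.15. In MT1 the medians of the groups were nearly equal, -0.71 for membrane genes and -0.77 for plaque genes. The 6 plaque genes that were not lost were the 3 catenins, Tjp1 and Pard3 of the tight junction, whose Tjp3, Cgn and Pard6b were lost, and the desmosome gene Pkp1. The 7 plaque genes of the desmosome had a median of -6.87 in MT2, close to the -7.03 of the 13 membrane genes of the tight junction (-6.79 at the bounds), and the 3 catenins ranged from -0.67 to -0.33. These medians are descriptions of the list and no test was made between membrane and plaque.

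What remained of Epcam and of some claudins in MT2 lay largely in few cells. Of 9793 kept MT2 cells, 29 fell outside the 2 MT2 clusters, a set singled out after its values were seen, and held 0.247% of the UMIs. These 29 cells held 396 of the 560 Epcam UMIs of MT2 (70.7%), 31 of 50 for Cldn3, 18 of 41 for Cdh1 and 21 of 37 for Cldn4. Among the other lost genes the share was as high for Cldn1 (72.7%) and Crb3 (70.0%), 50.0% for Marveld3 and Cgn, and lower for Marveld2 (8.33%), Dsp (11.8%) and Jup (12.5%). It was 30.8% for Cldn7, 2.09% for Pkp2 and 1.72% for Ppl. None of the UMIs of Cldn23 (22), Pard6b (7) and Cdh2 (6) lay in these cells. For the catenins, Tjp1 and Pard3 it ran from 0.304% (Ctnnd1) to 0.598% (Tjp1). Without the 29 cells the log2 fold change of Epcam moved from -7.98 to -9.75 and that of Cldn4 from -8.65 to -9.81, and 28 members were again lost. Dsg2 differed, since 6.73% of its 416 UMIs lay in these cells and its level was 9.14 and 9.87 CPM in the 2 MT2 clusters. Perp, Ppl, Pkp1 and Pkp2 were also read in the MT2 clusters themselves, with Perp at 7.80 and 11.3 CPM and Ppl at 21.8 and 19.9 CPM.

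The second question was how the genes differ between cells of 1 tumor. MT1 held cells with Epcam and without Cav1 (caveolin-1, a coat protein of caveolae) and cells with Cav1 and without Epcam. Cells with 2 or more Epcam UMIs and 0 Cav1 UMIs were called Epcam-positive (4323 of 7460), and cells with 2 or more Cav1 UMIs and 0 Epcam UMIs were called Cav1-high (998). The remaining cells entered neither class: 1274 had both genes, 583 had 1 UMI of one gene alone and 282 had neither. The classes had similar depth, with median UMIs per cell of 2155 and 2205.5, and 979 of the 998 Cav1-high cells lay in 1 cluster found without the junction genes. Cav1 itself was not left out of the clustering and is among the leading genes of that cluster, so the overlap is partly built in. Vim, a filament protein of mesenchymal cells that the classes did not use, had 56.2 to 95.6 CPM in Epcam-positive and 6171 to 8801 CPM in Cav1-high cells over the 5 libraries. The 8 fibroblast markers summed to 35.7 to 134 CPM in Epcam-positive and 1619 to 1882 CPM in Cav1-high cells, and their part in what follows was not tested.

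Epcam chose the cells and is not counted here. Of the other 35 members, 11 were lost, 10 lowered and 4 higher in Cav1-high cells, 1 was not called and 9 were too low to be tested (edgeR with the library as block, 10 sums). Of the 7716 genes tested, 62.7% were called, 31.5% lower and 31.2% higher, and 3.27% met the rule for lost. By the rule for a switch the cadherins counted as one, with Cdh1 lower and Cdh2 higher, where Cdh2 passed the filter on low values only through the class in which it was high. Cdh1 measured 189, 221, 192, 197 and 212 CPM in the Epcam-positive cells of the 5 libraries and 28.9, 31.6, 12.6, 12.9 and 14.0 CPM in the Cav1-high cells, a log2 fold change of -3.63 ± 0.16 (SE, adjusted p = 1.73e-25). Cdh2 had 1 UMI in all Epcam-positive cells together and 71 in Cav1-high cells, where it was 25.3, 31.6, 25.2, 32.1 and 24.5 CPM, a ratio of 301-fold (95% interval 52.3 to 12059.8) that covers counting error only (edgeR log2 fold change 7.24, adjusted p = 6.41e-17). No library overlapped for either gene. Cdh3 (17 UMIs against 0) and Cdh11 (1 against 0) were too low to be tested, and the former is at least 1.34-fold lower in Cav1-high cells.

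**Figure D3:**
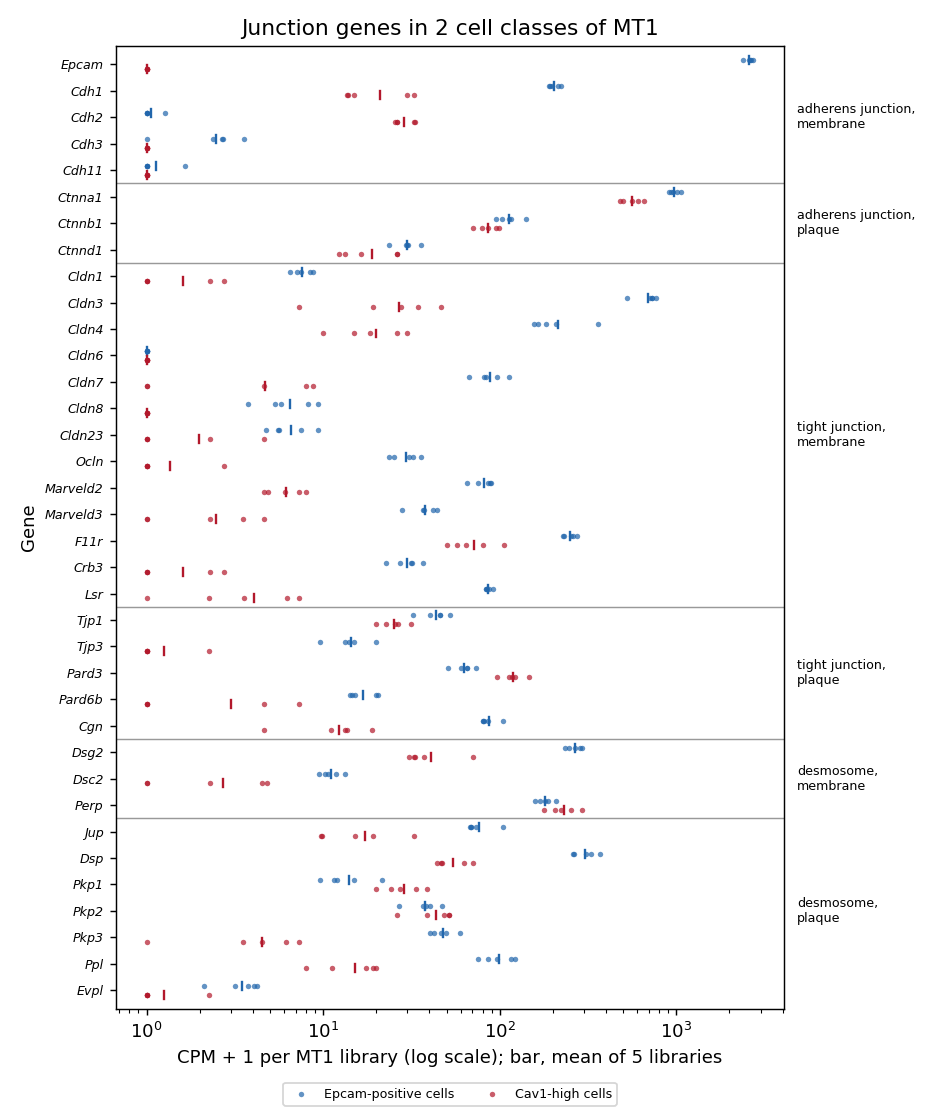
CPM + 1 (log scale) of each member in the Epcam-positive (blue) and Cav1-high (red) cells of the 5 MT1 libraries, with 1 point per library and a bar at the mean. Cdh2, Perp, Pard3, Pkp1 and Pkp2 have a red mean to the right of the blue one, and Cldn3, Cldn4, Cldn7, Marveld2, Marveld3 and Lsr have red points far to the left of the blue ones.

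The catenins again changed little. Ctnna1 was 959, 1002, 1062, 929 and 908 CPM in Epcam-positive and 499, 652, 609, 563 and 481 CPM in Cav1-high cells (-0.80 ± 0.06, SE, adjusted p = 7.44e-17). Ctnnb1 was 112 ± 17.5 and 84.9 ± 11.5 CPM (mean ± SD, n = 5 libraries, edgeR log2 fold change -0.40 ± 0.11, SE, adjusted p = 0.00182). Ctnnd1 was 28.9 ± 4.37 and 17.9 ± 6.90 CPM (edgeR log2 fold change -0.89 ± 0.24, SE, adjusted p = 0.00113). Their falls were all under 1 log2 unit, where that of Cdh1 was 3.63.

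The claudins fell with no member called higher. Cldn3 was 527, 712, 761.6, 729.5 and 729 CPM in Epcam-positive and 18.1, 6.33, 26.5, 33.4 and 45.5 CPM in Cav1-high cells (-4.55 ± 0.12, SE, adjusted p = 4.32e-35). Cldn4 was 156, 358, 209, 163 and 182 CPM in the former and 28.9, 25.3, 13.9, 8.995 and 17.5 CPM in the latter (-3.62 ± 0.16, SE, adjusted p = 3.79e-25). Cldn7 was 66.0, 112, 95.1, 80.0 and 82.8 CPM in the former and 3.61, 0, 0, 7.71 and 6.99 CPM in the latter (-4.30 ± 0.28, SE, adjusted p = 6.06e-19). The 5 Cav1-high sums lay below the 5 Epcam-positive sums for each of these. Cldn1 (72 UMIs against 2), Cldn8 (54 against 0) and Cldn23 (56 against 2) were too low to be tested. Their ratios of Epcam-positive to Cav1-high cells were 8.49-fold (95% interval 2.27 to 71.4) for Cldn1, at least 4.24-fold for Cldn8 and 6.60-fold (95% interval 1.74 to 55.9) for Cldn23. Cldn6 had 0 UMIs in both classes.

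The other tight junction membrane genes were also lower, by unequal amounts. Ocln was 22.5 to 34.6 CPM over the Epcam-positive sums and had 1 UMI in Cav1-high cells, a ratio of 68.1-fold (95% interval 12.1 to 2700.5). Marveld2 (-3.996), Marveld3 (-4.54) and Lsr (-4.93) were lost, and Crb3 had 300 UMIs against 2 (ratio 35.4-fold, 95% interval 9.71 to 293). F11r stood out as lowered and not lost, at 259, 273, 253, 229 and 231 CPM in Epcam-positive and 105, 63.3, 79.4, 56.5 and 49.0 CPM in Cav1-high cells (-1.84 ± 0.11, SE, adjusted p = 2.79e-20).

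Behind the membrane, Pard3 was higher in Cav1-high cells. It measured 49.8, 64.6, 72.7, 64.0 and 59.5 CPM in Epcam-positive and 116, 120.2, 145, 95.1 and 112 CPM in Cav1-high cells, higher in each library, with a log2 fold change of 0.88 ± 0.11 (SE, adjusted p = 2.72e-09). Tjp1 was 42.3 ± 7.36 and 24.2 ± 4.26 CPM (mean ± SD, n = 5 libraries, edgeR -0.73 ± 0.18, SE, adjusted p = 5.78e-04). Cgn was 85.6 ± 10.4 and 11.3 ± 5.20 CPM (edgeR -2.74 ± 0.20, SE, adjusted p = 8.82e-17). Pard6b (166 UMIs against 2, ratio 19.6-fold, 95% interval 5.33 to 163) and Tjp3 (159 against 1, ratio 37.5-fold, 95% interval 6.63 to 1489.9, not tested) had few UMIs in Cav1-high cells.

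Desmosome genes split in the same tumor. Jup was 68.1, 103, 67.5, 72.5 and 67.2 CPM in Epcam-positive and 18.1, 31.6, 8.83, 14.1 and 8.74 CPM in Cav1-high cells (-2.46 ± 0.20, SE, adjusted p = 3.05e-15). Dsp was 259, 328, 367, 263 and 308 CPM in the former and 43.4, 69.6, 61.8, 46.3 and 45.5 CPM in the latter (-2.56 ± 0.11, SE, adjusted p = 2.39e-26). Dsg2 was 234, 293, 284, 267 and 245 CPM in the former and 36.1, 69.6, 31.5, 32.1 and 29.7 CPM in the latter (-2.95 ± 0.12, SE, adjusted p = 5.22e-26). All 3 fell without overlap but were still read in every Cav1-high sum. Dsc2 (106 UMIs against 6) and Evpl (28 against 1) were not tested, and Ppl was lowered (-2.92 ± 0.19, SE, adjusted p = 8.91e-19).

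Perp and the plakophilins were where the desmosome did not fall as 1 block. Perp was 186, 158, 207, 179 and 169 CPM in Epcam-positive and 293, 177, 251, 206 and 220.3 CPM in Cav1-high cells, higher in each library by a small amount (0.32 ± 0.08, SE, adjusted p = 5.29e-04). Pkp1 was 8.65, 10.99, 13.9, 10.6 and 20.6 CPM in the former and 32.5, 19.0, 37.8, 23.1 and 26.2 CPM in the latter (1.10 ± 0.23, SE, adjusted p = 5.58e-05). Pkp2 was 35.7, 45.9, 39.1, 25.9 and 37.2 CPM in the former and 25.3, 50.6, 37.8, 47.5 and 50.7 CPM in the latter and was not called (0.30 ± 0.18, SE, adjusted p = 0.135). Pkp3 was 45.4, 58.8, 48.4, 39.5 and 41.7 CPM in the former and 0, 6.33, 2.52, 5.14 and 3.497 CPM in the latter and was lost (-3.64 ± 0.31, SE, adjusted p = 2.41e-14). With Pkp3 lower and Pkp1 higher in the same contrast, the plakophilins counted as a switch by the rule. Since 31.5% of all tested genes were lower and 31.2% higher here, this count is a description. Pkp1, like Cdh2, passed the filter on low values through the Cav1-high class, and both kept their call with no filter.

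Membrane and plaque genes were also set apart in Cav1-high cells. Of 20 membrane genes, 9 were lost, 2 lowered (F11r and Dsg2) and 2 higher (Cdh2 and Perp), and 7 were not tested. Of 15 plaque genes, 2 were lost (Pard6b and Pkp3), 8 lowered, 2 higher (Pard3 and Pkp1), 1 not called (Pkp2) and 2 not tested. The medians of the tested members were -3.996 and -0.89, beside -0.01 over all genes, and since members passed the filter on low values mostly through the class where they were high, these counts and medians are descriptions. Nearest to the limit for lost stood Cldn4 at -3.62 on the inside and Dsg2 at -2.95 on the outside.

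Free RNA in droplets can place UMIs of epithelial genes in other cells, so the Cav1-high levels were set beside the fibroblast-like cells of MT1 that had 0 Epcam UMIs (173228 UMIs in all). Cdh1 was 15.4 CPM in the Cav1-high cells pooled and 11.5 CPM in these fibroblast-like cells. Cldn3 was 29.8 and 52.0 CPM, and Cldn4 was 15.1 and 11.5 CPM. The 95% Poisson intervals of the cell types overlapped for these genes and for 28 of the 35 members in all, Epcam left out because it chose both sets of cells. They were apart, with the Cav1-high level above, for 6 members: F11r, Perp, Ctnna1, Pard3, Pkp1 and Pkp2. Perp stood at 224 CPM against 34.6, and Pkp2 at 41.8 CPM against 0 UMIs, for which the interval reaches 21.3 CPM. Cdh11 was apart in the other direction, with 0 UMIs in Cav1-high cells and 543 CPM in the fibroblast-like cells. For Cdh2 the intervals overlapped (26.7 CPM with 20.9 to 33.7, and 11.5 CPM with 1.40 to 41.7 from 2 UMIs).

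Cav1-high cells of MT1 and the MT2 clusters, each low in claudins, are set side by side for some members read in them. With each scaled to its own total, Cdh2 was 26.7 CPM in Cav1-high cells and 0.179 and 0.107 CPM in the 2 MT2 clusters. Perp was 224 against 7.80 and 11.3 CPM, F11r 65.5 against 1.08 and 0.966 CPM, Pkp2 41.8 against 4.71 and 4.40 CPM and Dsp 50.5 against 2.29 and 1.66 CPM. The scaffold Tjp1 ran the other way, at 25.2 CPM against 51.9 and 44.9 CPM. Ctnnb1 was at 83.3, 102 and 95.5 CPM. The Cdh2, Dsp, Tjp1 and Ctnnb1 levels of Cav1-high cells were among those whose intervals overlapped the fibroblast-like cells. These classes come from different animals and no test was made between them. In the sums of all tumor cells, 31 of 35 tested members were higher in MT1 than in MT2, 1 was lower (Tjp1) and 3 were not called (Cldn6, Ctnnb1 and Pard3). Of all genes, 68.2% were called, 35.3% higher and 33.0% lower in MT1.

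In the glands, the members were spread unequally over the epithelial cell types. The gland cells fell into luminal secretory-like, luminal hormone-sensing-like and basal-like clusters, found without the junction genes. Cdh3 was 27.0 to 86.8 CPM in the basal-like cells of the 4 gland libraries, 0 to 3.07 in hormone-sensing-like and 1.98 to 5.30 in secretory-like cells. Pkp1 (73.4 to 363, 5.54 to 31.3 and 14.9 to 21.7 CPM) and Dsp (571 to 854, 394 to 444 and 103 to 145 CPM) were also highest in basal-like cells in each library. Pkp2 was the reverse, at 0 to 7.37 CPM in basal-like, 40.6 to 64.1 in hormone-sensing-like and 49.4 to 78.3 in secretory-like cells.

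Cldn1, Cldn3, Cldn4, Cldn6, Cldn7 and Cldn8 had their highest pooled level in luminal cells. Cldn3 was 168 to 259 CPM in hormone-sensing-like and 135 to 279 in secretory-like cells and 17.4 to 30.3 in basal-like cells. Cldn4 was higher in hormone-sensing-like (611 to 1716 CPM) than in secretory-like cells (252 to 738 CPM) of every library, and Cldn7 was 217 to 431 and 248 to 485 CPM. Cldn1 was mostly read in secretory-like cells (23.8 to 67.4 CPM, against 0 to 14.1 in hormone-sensing-like and 0 to 3.68 in basal-like cells). Cldn6, the claudin at 0 UMIs in both tumors, was 3.92 to 8.61 CPM in hormone-sensing-like, 0 to 0.535 in secretory-like and 0 in basal-like cells. Dsc2 (15.7 to 30.1 CPM in hormone-sensing-like and 0.991 to 17.96 in secretory-like cells) and Evpl (15.7 to 23.4 and 5.88 to 13.5 CPM) were higher in hormone-sensing-like cells, in 4 of 4 libraries for Evpl and, for Dsc2, in all but MG1 replicate 2.

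Members read in all 3 gland cell types included genes that were lost in MT2 and genes that were not. Of the lost, Cdh1 was 220.1 to 350.1 CPM in basal-like, 357 to 515 in hormone-sensing-like and 386 to 508 in secretory-like cells, and Jup was 84.9 to 242, 88.1 to 219 and 100.0 to 175 CPM. The others are given in the same order of cell types. Ctnna1 was 545 to 765 CPM in basal-like, 564 to 635 in hormone-sensing-like and 337 to 566 in secretory-like cells, and Ctnnb1 was 114 to 178, 118 to 309.6 and 85.2 to 147 CPM. Pard3 was 154 to 257, 79.9 to 121 and 109.9 to 139 CPM, highest in the basal-like cells of each library. Ctnnd1 was 0 to 42.5, 27.2 to 62.7 and 26.7 to 45.6 CPM, and Tjp1 was 84.7 to 166, 47.0 to 137 and 44.9 to 96.3 CPM. The basal-like values rest on 66113 to 345660 UMIs per library. The 6 hormone-sensing markers summed to 1556 to 2798 CPM in MG1 and 1687 to 1702 in MG2, and to 89.9 to 135 in MT1 and 23.7 to 30.05 in MT2, while the 7 secretory markers summed to 6679.6 to 6889 CPM in MG1, 10381 to 10811 in MG2, 7124 to 11169.7 in MT1 and 209 to 236 in MT2. The 8 basal markers summed to 701 to 863 CPM in MG1, 674 to 796 in MG2, 184 to 206 in MT1 and 16.1 to 18.2 in MT2, with Oxtr at 0 in MT1 and Krt5 and Oxtr at 0 in MT2. The part of these marker levels in the falls of Cldn4, Cldn6, Dsc2 and Evpl in MT1 and of Cdh3, Pkp1 and Dsp in both tumors was not tested.

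**Figure D4:**
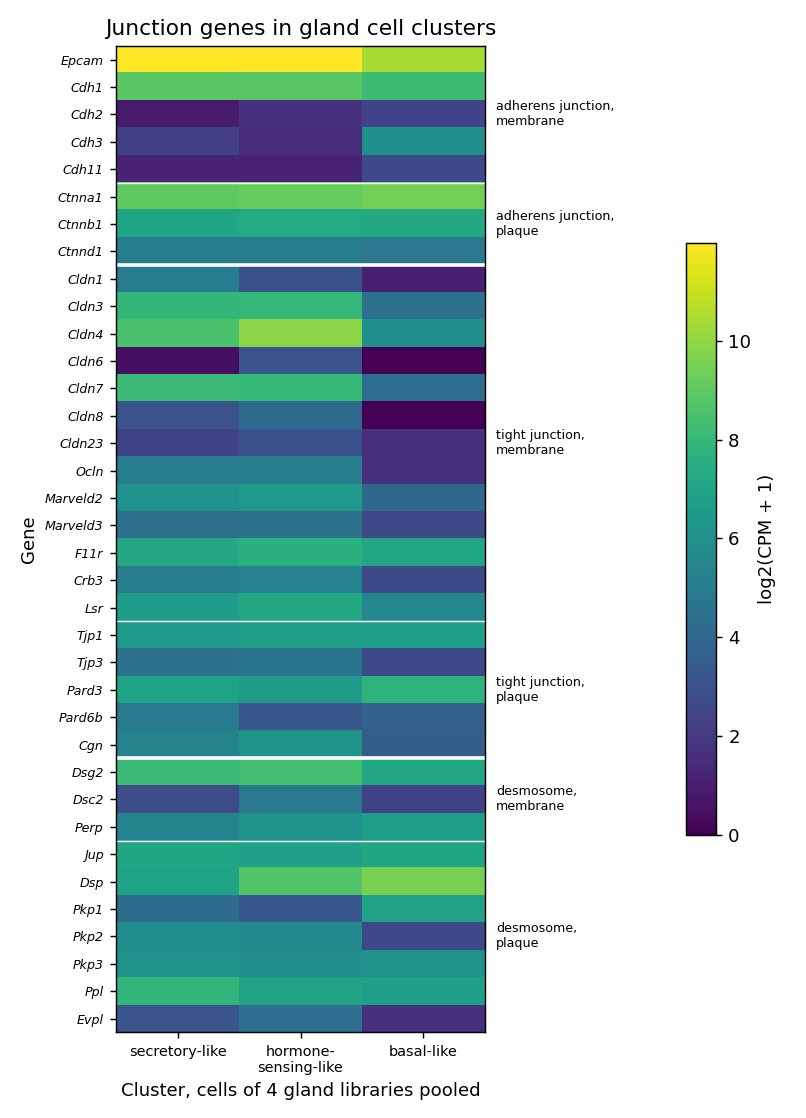
Level of each member as log2(CPM + 1) in 3 clusters of gland cells, with the cells of the 4 gland libraries pooled. Cdh3, Pkp1 and Dsp are brightest in the basal-like column, Cldn3, Cldn4 and Cldn7 are bright in the luminal columns, and the catenins are similar across all.

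A further 41 junction genes outside the 36 were read as a second list. In MT1 against MG1, 15 fell, 6 rose, 13 were not called and 7 were not tested, and in MT2 against MG2, 21 fell, 6 rose, 7 were not called and 7 were not tested. Of all genes, 27.1% fell and 32.3% rose in MT1, and 34.2% and 32.6% in MT2. The median log2 fold changes of the list were -0.14 and -1.28. In MT1 the largest falls were of Cldn10 (-3.43 ± 0.26, SE, adjusted p = 1.15e-08) and Mpp5, the polarity protein PALS1 (-1.96 ± 0.18, adjusted p = 1.27e-07). The rises with the highest fitted values were of Cldn2, a claudin that forms cation pores, with 65 UMIs in MT1 and 0 in MG1 (at least 3.40-fold higher), and Jam3, with 71 UMIs against 1 (ratio 11.1, 95% interval 1.94 to 446). Cldn2 passed the filter on low values only through MT1, where it was high. The opposite moves of Cldn10 and Cldn2 are therefore a description and no result on claudins as a family.

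In MT2 the falls of the second list with the lowest fitted values were of Ildr1, an angulin related to Lsr, with 166 UMIs in MG2 and 0 in MT2 (at least 258-fold lower), and Cldn10, with 267 against 2 (ratio 622, 95% interval 170.5 to 5162). The rises were small, led by Cdh13, a cadherin anchored by lipid and without a cytoplasmic tail (1.86 ± 0.36, SE, adjusted p = 0.000199), and Mpdz, the scaffold MUPP1 (1.10 ± 0.16, SE, adjusted p = 1.13e-05). In the difference between the mice, 14 of 34 tested were higher and 5 lower in mouse 1, beside 26.4% and 17.2% of all genes. Amotl2, an angiomotin family scaffold (-2.19 ± 0.28, SE, adjusted p = 6.11e-06) and Magi3, a junction scaffold (-1.65 ± 0.33, SE, adjusted p = 0.000549) stood lowest. Cldn2 and Ildr1 had the highest fitted values, but with 0 UMIs in a group these depend on the prior count, so that neither size nor order is given. Between the tumors, 21 were higher in MT1 and 6 in MT2, beside 35.3% and 33.0% of all genes: Ildr1 had 484 UMIs against 0 (at least 331-fold), the adhesion molecule Nectin4 differed by 7.85 ± 0.34 (SE, adjusted p = 7.12e-13), and Amotl2 (-1.94 ± 0.15) and Nectin1 (-1.77 ± 0.16) were lower in MT1.

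In Cav1-high against Epcam-positive cells, 14 of the 41 fell, 5 rose, 6 were not called and 16 were not tested, beside 31.5% and 31.2% of all tested genes that fell and rose. Cdh13 rose by 6.34 ± 0.22 (SE, adjusted p = 8.69e-30), from 18 UMIs in Epcam-positive cells to 359 in Cav1-high cells, and Jam3 by 3.81 ± 0.46 (SE, adjusted p = 4.94e-10). Both passed the filter on low values through the class in which they were high. Cxadr, the adhesion receptor of the tight junction region that binds coxsackievirus and adenovirus, fell by 3.86 ± 0.12 (SE, adjusted p = 6.96e-32), and Nectin2 had 199 UMIs against 3 (ratio 15.6, 95% interval 5.27 to 76.5). With the mouse as replicate, 0 of 34 tested genes of this list were called and 5 had an unadjusted p under 0.05, beside 14.8% of all genes.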

How the data were processed

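Drop-seq profiles of mammary gland and tumor cells were analysed from 1 table of UMI counts per gene and cell, which the authors deposited for all 12 libraries. Per the labels and the study's methods, the authors made these counts with Drop-seq tools and STAR on GRCm38.p6, filtered cells and genes, and joined the libraries, and the fewest genes in any deposited cell was 800. Cells were assigned to libraries by the ending of the cell name after its barcode and to groups by the labels.

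Cells were clustered with scanpy 1.11.5 (3000 variable genes, 30 principal components, 20 neighbours, Leiden resolution 0.6), with 77 junction genes left out, so that no junction gene shaped a cluster. Clusters with at least 3 markers of a type were named and stromal clusters left out. No doublet caller was run, and a fit without the 5% of cells with the most UMIs stood in for it. Counts were summed per library and tested with the edgeR 4.0.16 quasi-likelihood test (R 4.3.3, TMM, filterByExpr, 1 fit for the 4 groups, Benjamini-Hochberg at 0.05). Each SE was derived from the size of the log2 change and the root of its F statistic. Sums per mouse were fitted with the mouse as block, since the labels give gland and tumor of the same animal, and MT1 class sums with the library as block. DESeq2 1.42.0 was an alternative. Other alternatives changed the scaling, the filter, the cells summed, the libraries and the cut of the classes. The fit was also run on simulated counts with known changes, and that run is not used as support here. In 1 alternative each cell was thinned to 1000 UMIs before the classes were cut.

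The 36 members, the further junction list, the marker lists and the rules were chosen with earlier results of these data known. Every member is accounted for, and a member is given library by library where it was lost in 1 contrast and not in another, rose, or is a cadherin, catenin or claudin, which with the remaining members covers the list. A count of 0 is read against a limit of 3 counts, with the UMIs of all libraries of a group pooled. These limits and the 95% intervals (exact) cover counting error only.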

Additional observations from a re-analysis of the deposited data

Results flagged for a closer look

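Of 100 sets of 5 values tested (each member over the MT1 libraries and over the classes of MT1 cells), 14 held a library that lay far from the other four, where chance gives about 1 in 20 of sets with varied values. In 5 of the 14 a single UMI stood against 0 in the other libraries, which meets the criterion by construction. MT1 replicate 2 was the highest for Cdh1 (182 CPM, next 155), Cdh3 (3.93 CPM, next 1.96), Cldn4 (291 CPM, next 166) and Jup (94.99 CPM, next 58.9). Within the Epcam-positive cells it was again the highest for Cldn4 (358 CPM, next 209) and Jup (103 CPM, next 72.5). It was also the highest in Cav1-high cells for Dsg2, a desmosomal cadherin, at 69.6 CPM with the next at 36.1. In Epcam-positive cells, MT1 replicate 1 was the lowest for Cldn3 (527 CPM, next 712) and the highest for Cgn (104 CPM, next 85.0). These 5 were Cdh2 (replicate 3, 0.273 CPM) and Cdh11 (replicate 2, 0.646 CPM) in Epcam-positive cells, and Ocln (replicate 5, 1.75 CPM), Tjp3 (replicate 3, 1.26 CPM) and Evpl (replicate 3, 1.26 CPM) in Cav1-high cells.

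The change from gland to tumor differed between the mice for 30 members by the interaction of tissue and mouse (edgeR quasi-likelihood, Benjamini-Hochberg over all genes), always with the higher tumor-to-gland ratio in mouse 1. On the log2 scale, the difference among adherens junction genes was 7.41 for Cdh1, 7.18 for Epcam, 7.14 for Cdh3, 4.78 for Cdh2 (2.02, adjusted p = 0.251, without gland cells in tumor clusters) and 0.97 for Ctnna1. Among claudins it was 8.91 for Cldn3, 7.67 for Cldn8, 6.11 for Cldn7, 6.01 for Cldn4, 4.29 for Cldn1 and 3.03 for Cldn23. The other membrane genes of tight junctions had differences of 7.45 (Lsr), 7.21 (Crb3), 6.70 (Marveld3), 6.63 (F11r), 6.00 (Marveld2) and 5.58 (Ocln), and the cytoplasmic ones of 9.18 (Tjp3), 6.76 (Cgn) and 6.13 (Pard6b). Among desmosome genes the values were 8.47 for Dsc2, 6.62 for Jup, 6.56 for Evpl, 6.45 for Dsp, 6.08 for Pkp3, 4.08 for Dsg2, 3.91 for Perp, 2.39 for Pkp2, 2.07 for Ppl and 1.11 for Pkp1, a call lost in 11 of 19 alternatives, DESeq2 among them (0.80, adjusted p = 0.176). Cdh3, Cldn8, Dsc2, Tjp3 and Evpl had 0 UMIs in MT2, so that their fitted values depend on the prior count. With 1 animal on each side, the mouse and its tumor cannot be told apart.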

How the results depend on the processing

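The count of lost members in MT1 was 2 with no filter on low counts, 0 without the 5% of cells with the most UMIs and 0 with only MT1 and MG1 in the fit, beside 1 as reported, and the cause was not tested. Leaving out 1 library at a time gave 13 to 24 lower, 3 to 4 higher and 0 to 2 lost members in MT1, with 13 lower without MG1 replicate 1. It gave 32 to 35 lower and 27 to 28 lost in MT2, and 29 to 30 higher and 0 to 1 lower in the difference between the mice, where all cells also gave 1 lower. Between MT1 classes it gave 21 to 22 lower and 11 to 14 lost. Cdh2 in MT1 reversed, ranging from -1.79 to 2.63. A group left with 1 library was assumed to vary like the others. Calls over all genes moved in these fits as well, so the ranges show how stable the calls were and not how unusual the members are. With the mouse as replicate, DESeq2 gave 15 lower and 15 lost members, where 732 of all 14970 genes were lower and 576 lost. With edgeR it was 0. Without TMM the median member of MT2 stood at 0.5996 CPM, beside 0.624.

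Of single-gene values in MT1, 651 kept direction and call, 43 lost the call, 3 gained one and 1 reversed. In MT2, 755 kept both, 10 lost the call (8 of them Ctnnb1) and 4 gained one. The 363 values between MT1 classes and the 698 between the tumors all kept both, and of the differences between the mice Pkp1 lost its call in 11 of 19 alternatives and Cdh2 in 1. The median of all genes in that difference moved from 0.15 to 0.00 with RLE. Leaving out the 29 MT2 cells, an alternative chosen after seeing the data, changed no count of members.

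For library numbers shared by MG2 and MT2 the correlation of deviations was 0.0908. With so few libraries in each group this cannot show whether the numbers pair the samples. With the replicate block MT2 had 35 lower and 28 lost members, and the same 4 libraries without it had 35 and 27. Ctnna1 was called lower in both (-0.36, adjusted p = 0.0277 with the block, and -0.35, adjusted p = 0.0322). Without the block, the mouse sums again gave 0 calls and the MT1 classes 21 lower, 4 higher and 11 lost. The library with the fewest kept cells was MG1 replicate 2 (76), and the lowest genes rest on 0 to 3 UMIs in a group.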
